A study of Mus musculus with 6 samples.

Results

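Acute-phase genes of mouse lung were compared between irradiated and untreated animals: the serum amyloids Saa1, Saa2 and Saa3, lipocalin Lcn2, haptoglobin Hp, orosomucoid Orm1, and the serpins Serpina3f, Serpina3g, Serpina3m and Serpina3n. They were taken by symbol and are 10 of the 40842 named genes listed for every library. They were chosen by their FPKM levels in irradiated against control lung, which were already known, so that difference is given as a description and supports nothing. Bulk polyA RNA of whole lung was sequenced in 3 control libraries and in 3 libraries from lungs examined 100 days after electrons of 9 MeV were given once at 20 Gy. All libraries were from wild-type (WT) female C57BL/6N mice, and the untreated controls carry the same 100 day label. The age of the mice and the part of the body exposed are not given in the labels. Whether each library came from its own mouse is not labelled either, so the p-values reflect only how these libraries vary, and that variation may be technical.

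Acute-phase proteins are secreted when injury or infection raises cytokines such as IL-6 and IL-1. These cytokines act through STAT3, C/EBP and NF-κB factors on the promoters of acute-phase genes. The liver is the main source of most of them, but several are also made locally in the lung, by epithelial cells, macrophages or neutrophils. In mice Saa1 and Saa2 are the chief liver amyloids and Saa3 is made mainly outside the liver. Lcn2 binds the siderophores with which bacteria collect iron, Hp binds free haemoglobin, and Orm1 is a lipid-binding plasma protein. The mouse carries a cluster of Serpina3 genes in the place of the single human antichymotrypsin gene SERPINA3.

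The level of each gene is the authors' FPKM, which scales reads for transcript length and library depth. The 10 genes covered a wide range of levels. In control lung Hp, Lcn2 and Serpina3n had the highest mean levels, at 386, 84.7 and 25.9 FPKM, and Saa2 was listed at 0 in all 3 libraries. In irradiated lung Hp and Lcn2 were at nearly the same mean level, 385 and 374 FPKM. A level in whole tissue does not separate fewer cells of a type from less RNA per cell. The aligned sequence behind the values was between 5.10 and 10.4 Gb per library, with irradiated 2 the deepest, and between 13467 and 14050 genes per library reached 1 FPKM.

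Saa3, the amyloid made mainly outside the liver, was at 0.890, 2.04 and 0.996 FPKM in control 1, 2 and 3. It was at 30.1, 17.8 and 11.7 FPKM in irradiated 1, 2 and 3. Every irradiated library was above every control, and the lowest irradiated library was above the highest control by a wide margin. The ratio of the group means was 15.2. On the log2(FPKM + 1) scale the difference was 3.11 ± 0.35 (SE, n = 3 per group).

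Saa1, a liver amyloid, was listed at 0, 0.0724 and 0.0348 FPKM in control 1, 2 and 3 and at 1.08, 0.212 and 0.0522 FPKM in irradiated 1, 2 and 3. Irradiated 1 stood apart, and irradiated 3 lay below control 2, so the groups overlapped. Saa2, its near copy, was listed at 0 in every control and at 0.387, 0.161 and 0.0677 FPKM in irradiated 1, 2 and 3. These levels are near the bottom of what was measured: the mean number of reads over a base of Saa1 was at most 3.78, and that of Saa2 at most 1.66, in any library. Neither gene reached the mean of 1 FPKM needed to enter the fit over all genes. Saa3 made up between 95.4% and 100% of the summed FPKM of the 3 amyloids in each library.

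Lcn2, the siderophore-binding lipocalin, lies on chromosome 2 at 32274649 to 32277751 (GRCm39, minus strand). It was at 70.0, 107 and 77.0 FPKM in control 1, 2 and 3 and at 452, 302 and 366 FPKM in irradiated 1, 2 and 3. The groups did not overlap, and the irradiated libraries spread little, the highest being 1.50 times the lowest. The ratio of the group means was 4.41 and the log2 difference was 2.13 ± 0.21. Lcn2 also had the largest absolute gain of the 10 genes. Lcn2 and Hp both limit the iron that bacteria can reach, and their balance differed between the groups. The Lcn2 to Hp ratio of FPKM was 0.159, 0.307 and 0.209 in control 1, 2 and 3, and 1.49, 0.631 and 0.986 in irradiated 1, 2 and 3.

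Hp itself, the haemoglobin-binding protein, is encoded on chromosome 8 at 110301760 to 110305804 (GRCm39, minus strand). Its level was 441, 349.8 and 368 FPKM in control 1, 2 and 3 and 304, 479 and 372 FPKM in irradiated 1, 2 and 3. The irradiated libraries lay both above and below the controls. The log2 difference was -0.02 ± 0.19, and its sign was kept in 12 of 16 alternative settings. Hp was the only one of the 10 genes whose lowest irradiated library was irradiated 1. Red cell markers, haemoglobin genes among them, summed to between 1374 and 1739 FPKM in the controls and to 1475, 6348 and 1635 FPKM in irradiated 1, 2 and 3, highest where Hp was highest, and their part in the Hp level was not tested.

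Orm1, the plasma lipid carrier, lies on chromosome 4 at 63262793 to 63266400 (GRCm39, plus strand). It was at 0.312, 4.41 and 0.558 FPKM in control 1, 2 and 3 and at 5.59, 1.47 and 3.51 FPKM in irradiated 1, 2 and 3. Control 2 was above both irradiated 2 and irradiated 3, so the groups overlapped. The log2 difference was 0.91 ± 0.61, but 0.53 without control 1, 1.55 without control 2, 0.58 without irradiated 1 and 1.93 without both control 2 and irradiated 2. Adipocyte markers moved in the same libraries: the summed FPKM of 8 genes, Adipoq and Plin1 among them, was 17.8, 326.8 and 29.7 in control lung, against 122, 8.48 and 83.0 in irradiated lung. Control 2 was the highest control for all 7 tested markers, as it was for 42.7% of all genes tested. Irradiated 2 was the lowest irradiated library for all 7, and the marker Lep, leptin, was under 1 FPKM in every library. The part of adipose tissue in the Orm1 values was not tested.

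Serpina3n, often taken as the mouse counterpart of human antichymotrypsin, was at 22.2, 26.1 and 29.3 FPKM in control 1, 2 and 3 and at 134, 70.8 and 59.9 FPKM in irradiated 1, 2 and 3. The groups did not overlap, and irradiated 1 was well above the other 2 irradiated libraries. The ratio of the group means was 3.41 and the log2 difference was 1.65 ± 0.29. Serpina3m, the nearest Serpina3 gene to it on the chromosome, was at 0.241, 0.478 and 0.646 FPKM in the controls and at 4.04, 3.59 and 3.30 FPKM in the irradiated libraries. Its irradiated libraries were the most even of all 10 genes, the highest being 1.23 times the lowest. The ratio of its group means was 8.01 and the log2 difference was 1.68 ± 0.15. This difference depends on the constant added before the logarithm, since the controls are under 1 FPKM: it was 2.14 with 0.5 and 2.82 with 0.1 in place of 1. The control level of Serpina3m is itself uncertain. Assembled loci without a gene name that overlap it summed to 0.512 FPKM in control 1 and 1.67 FPKM in control 3. With those values the ratio of the group means would be smaller.

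Serpina3g, a serpin known in mouse lymphoid and myeloid cells as an inhibitor of cysteine cathepsins, was at 4.80, 4.98 and 5.36 FPKM in control 1, 2 and 3 and at 18.3, 6.63 and 9.89 FPKM in irradiated 1, 2 and 3. The controls were nearly even, and all irradiated libraries lay above them. The log2 difference was 0.95 ± 0.31, and 0.59 without irradiated 1. Its neighbour Serpina3f was at 0.774, 1.53 and 2.14 FPKM in the controls and at 5.93, 2.33 and 2.24 FPKM in the irradiated libraries. The groups did not overlap, but irradiated 2 and irradiated 3 were close to control 3. The log2 difference of Serpina3f was 0.80 ± 0.35, and 0.44 without irradiated 1.

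**Figure D1:**
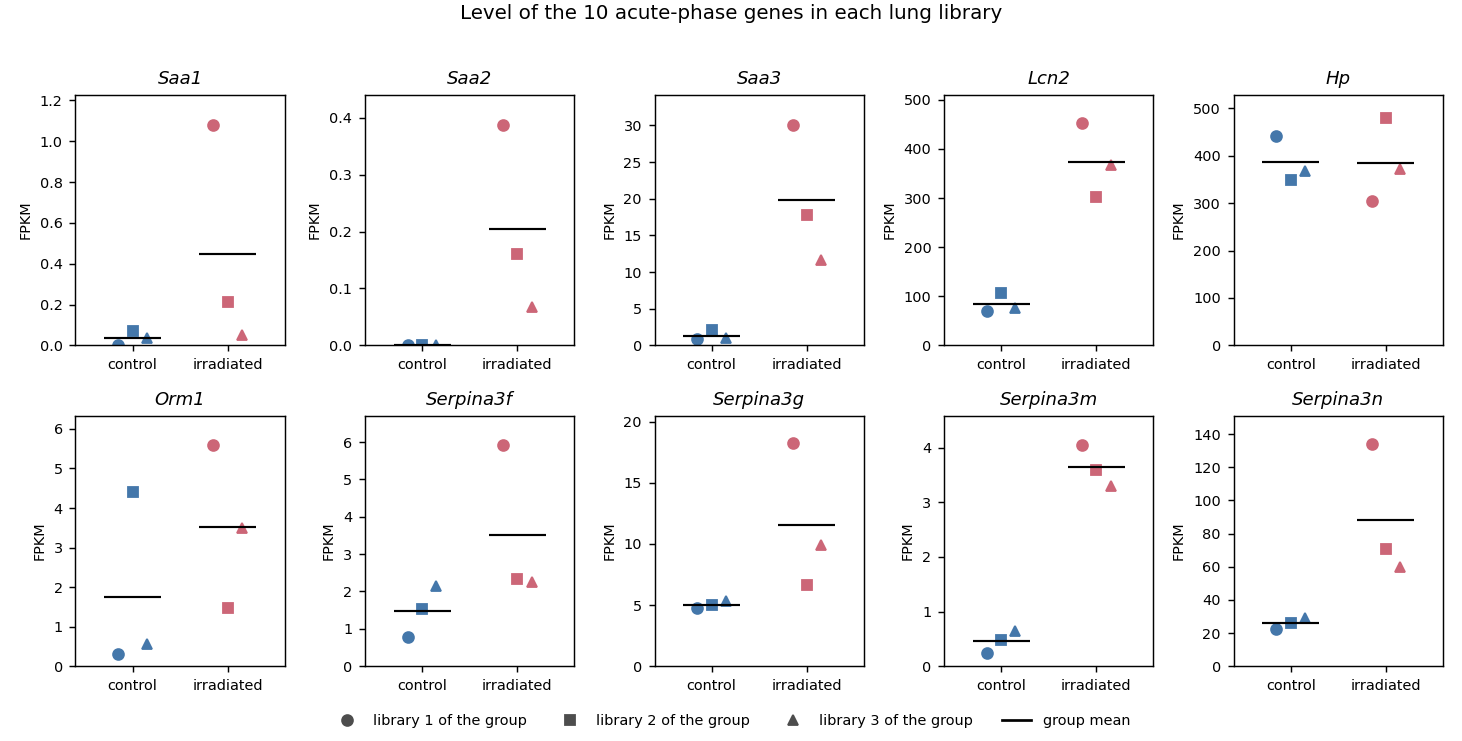
Level of each of the 10 acute-phase genes in FPKM (vertical axis, from 0, with a scale of its own for each gene) in the 3 control and 3 irradiated libraries; marker shape gives the library number and the line is the group mean. Saa3, Lcn2, Serpina3m and Serpina3n do not overlap between groups, Hp has means of 386 and 385 FPKM, and irradiated 1 is the highest library for 9 of the 10 genes.

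Of the 10 genes 7 (Saa2, Saa3, Lcn2 and the 4 serpins) had all irradiated libraries above all controls; among the 8 tested it was 6, and over all 13908 genes tested 9.91% did. Of the 10 genes, 8 averaged 1 FPKM or more across the 6 libraries and were in the fit, and Serpina3m was among them only through its irradiated libraries, since its control mean was 0.455 FPKM. By limma with Benjamini-Hochberg adjustment over all genes tested, Saa3, Lcn2 and Serpina3m passed an adjusted p under 0.05, 3 of the 8, all higher. Among all genes tested, 9 passed in that direction, 0.0647% of those tested. Nothing is read from these counts or calls, because this contrast was used to choose the genes. The count of 3 was 0 without control 1, control 2, control 3 or irradiated 2, and 4 without irradiated 1, when Serpina3n passed as well. Saa3 did not pass after rescaling FPKM to a common sum or with median-ratio scaling, which left 2 of the 8.

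The order of the irradiated libraries was alike among most of the genes. Irradiated 1 was the highest for 9 of the 10, all but Hp. Saa1, Saa2, Saa3, Serpina3f, Serpina3m and Serpina3n ran from irradiated 1 through 2 to 3, and Lcn2, Orm1 and Serpina3g from irradiated 1 through 3 to 2. For comparison, irradiated 1 was the highest of its group for 7 of the 8 members tested and in 36.1% of all 13908 genes tested. Among the 429 tested genes whose irradiated mean was at least 2 times the control mean, it was the highest in 38.9%, and irradiated 2 in 45.9%. The members were chosen on levels in these same libraries, so their order is a description and nothing is read from its count.

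The step between irradiated 1 and the rest differed from gene to gene. Saa3 was at 23.0, 13.6 and 8.92 times its control mean in irradiated 1, 2 and 3. Serpina3m was at 8.89, 7.90 and 7.25 times, and Lcn2 at 5.34, 3.57 and 4.33 times. In Serpina3f and Serpina3g the separation rested more on irradiated 1: Serpina3f was at 4.01, 1.57 and 1.51 times its control mean and Serpina3g at 3.62, 1.32 and 1.96 times. Among the controls, control 2 was the highest for Saa1, Saa3, Lcn2 and Orm1, while all 4 serpins were highest in control 3 and lowest in control 1.

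**Figure D2:**
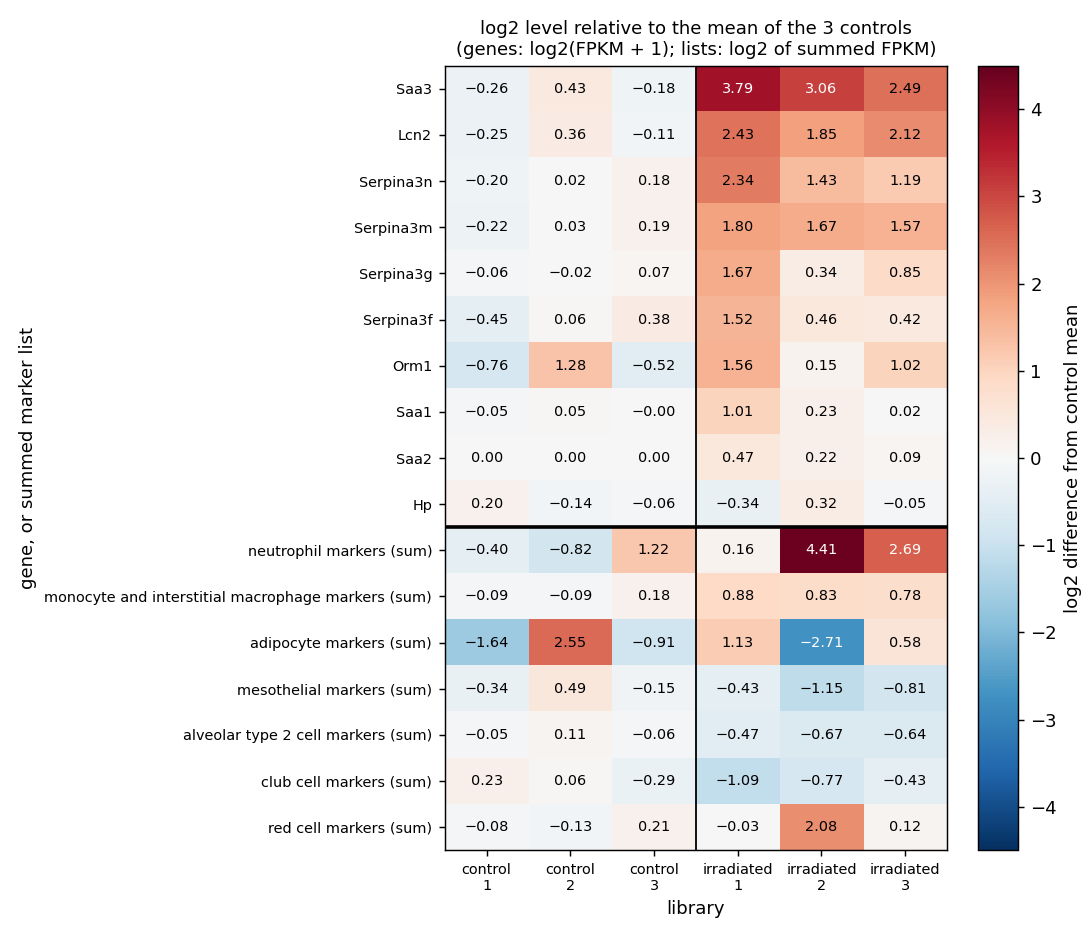
Each cell is the log2 level of a gene, or of the summed FPKM of a marker list, in 1 library (columns) minus the mean of the 3 controls; colour runs from blue (lower) to red (higher). Saa3, Lcn2, Serpina3n and Serpina3m are positive in all 3 irradiated libraries and largest in irradiated 1, where the neutrophil marker sum is near the control mean (0.16) and in irradiated 2 far above it (4.41).

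Neutrophils store Lcn2 in their granules, and they were followed through 18 marker genes. Their summed level was 178.6, 133.3 and 551 FPKM in control 1, 2 and 3 and 264, 5015 and 1527 FPKM in irradiated 1, 2 and 3. All 14 tested markers had a positive change, with a median of 2.22, and limma called none of them and put none under an unadjusted p of 0.05. Irradiated 1 was the lowest irradiated library for 13 of the 14, and irradiated 2 was the highest for 13. Among the irradiated libraries Lcn2 was highest where all tested markers but Ltf were lowest, and Hp had the order of the marker sum. Their part in these levels was not tested. S100a8, a calcium-binding protein of neutrophils, was at 59.3, 27.2 and 198.7 FPKM in the controls and at 75.0, 2029 and 509.9 FPKM in the irradiated libraries, so the ratio of Lcn2 to S100a8 ran from 0.149 in irradiated 2 to 6.03 in irradiated 1.

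Defining markers of hepatocytes were low. Alb, albumin, was between 0.242 and 1.42 FPKM in every library, and 6 of 10 hepatocyte markers were under 1 FPKM in all libraries. The summed level of the 10, most of it Cyp2e1, was 4.72, 29.7 and 5.02 FPKM in control lung, against 31.4, 7.67 and 23.0 FPKM in irradiated lung. Marker sums of other cell types were compared in the same way. Club cell markers summed to between 32890 and 46960 FPKM in the controls and between 18810 and 29750 FPKM in the irradiated libraries, most of it Scgb1a1 (between 30981 and 44203 against between 16267 and 26655 FPKM). Of the 6 club cell markers 3 had a positive and 3 a negative change, and Aldh1a1 was higher in all irradiated libraries than in any control. Alveolar type 2 cell markers summed to between 21590 and 24240 FPKM against between 14190 and 16210 FPKM. Monocyte and interstitial macrophage markers summed to between 173.5 and 210.1 FPKM against between 318 and 342 FPKM, and 9 of 10 had a positive change. Mesothelial markers summed to between 227 and 405 FPKM against between 130.1 and 214 FPKM. In irradiated 1, 2 and 3 the monocyte and interstitial macrophage sum was 341.5, 328.4 and 318.4 FPKM and the mesothelial sum 214, 130.1 and 164 FPKM. Both were highest in irradiated 1, as was the alveolar type 2 sum (16210, 14190 and 14440 FPKM). The club cell sum was lowest there (18810, 23540 and 29750 FPKM). The lung's own markers were high throughout, with Sftpc of alveolar type 2 cells between 8741 and 16828 FPKM. The part of these cell types in the levels of the acute-phase genes was not tested.

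The 3 amyloid genes lie in a cluster of 5 named genes that spans 42.3 kb of chromosome 7 in the GRCm39 coordinates of the files. Saa3 is at 46361422 to 46365100 and Saa1 at 46389921 to 46392605, both on the minus strand, and Saa2 at 46401257 to 46403737 on the plus strand. Saa4, a constitutive family member that lies between Saa3 and Saa1, was listed at 0 in all controls and at 0.0862, 0.0974 and 0 FPKM in irradiated 1, 2 and 3. Within the cluster only Saa3 reached a mean of 1 FPKM in irradiated lung. Saa1 and Saa2 were identical at 95.1% of 369 coding bases in the GENCODE M21 gene models, and Saa1 and Saa3 at 73.2%. The stretch of 60 coding bases with the most differences between Saa1 and Saa2, 7 of them, is shown for the 3 genes from coding base 90 to 149, since reads of the near copies can be told apart only by such positions. Capitals mark the positions where Saa1 and Saa2 differ.
Saa1: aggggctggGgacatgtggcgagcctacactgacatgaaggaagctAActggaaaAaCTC
Saa2: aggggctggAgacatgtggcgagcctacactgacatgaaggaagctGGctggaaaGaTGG
Saa3: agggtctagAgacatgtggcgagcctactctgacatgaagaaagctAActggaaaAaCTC

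The median over all such 60 base windows was 4 differing positions. Of the stretches of 50 bases in the Saa1 transcript, 14.8% also occur in another gene's transcript, almost all in Saa2, against 9.12% for Saa2 and 1.78% for Saa3. No stretch of 100 bases of any of the 3 is shared. The read length is not given in the sources used here, so the low values of Saa1 and Saa2 are uncertain in how they divide between the copies, while that of Saa3 is little affected.

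The 250 bases before the transcription start are shown for Saa3 and Lcn2, whose irradiated libraries were all above the controls. They are also shown for Saa1, a liver amyloid whose level in lung was low. The sequences are RefSeq promoters in the GRCm38.p6 build, a different build from that of the expression files, read 5′ to 3′ on the gene's own strand. Of the 10 genes 7 had an entry, and Hp, Orm1 and Serpina3m had none. The motifs searched, on both strands, were TTGCNNAA for C/EBP, TTCNNNGAA for STAT and the NF-κB consensus. Capitals mark the bases that match. The sequences are chr7:46715677-46715926, minus strand (Saa3), chr7:46742981-46743230, minus strand (Saa1), and chr2:32387740-32387989, minus strand (Lcn2).
Saa3: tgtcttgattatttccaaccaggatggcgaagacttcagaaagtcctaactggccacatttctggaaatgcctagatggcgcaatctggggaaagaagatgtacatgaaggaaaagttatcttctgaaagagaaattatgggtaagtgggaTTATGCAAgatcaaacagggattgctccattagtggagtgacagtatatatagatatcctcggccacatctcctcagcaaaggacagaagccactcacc
Saa1: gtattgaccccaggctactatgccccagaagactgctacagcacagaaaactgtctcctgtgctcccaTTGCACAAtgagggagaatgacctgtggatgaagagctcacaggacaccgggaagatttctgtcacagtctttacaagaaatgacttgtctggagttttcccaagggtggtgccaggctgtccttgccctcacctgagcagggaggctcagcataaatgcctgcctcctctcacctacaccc
Lcn2: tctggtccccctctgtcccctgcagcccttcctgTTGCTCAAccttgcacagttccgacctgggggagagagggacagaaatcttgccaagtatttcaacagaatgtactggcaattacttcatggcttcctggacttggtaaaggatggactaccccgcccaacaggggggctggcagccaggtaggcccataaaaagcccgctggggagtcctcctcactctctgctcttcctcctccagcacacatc

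Each of the 3 windows held 1 match, to the C/EBP letters, which 9.56% of 32851 promoter windows of that length hold. The match lay 99 to 92 bases before the start in Saa3, 182 to 175 in Saa1 and 216 to 209 in Lcn2. In Saa2 the same letters as in Saa1 lay 183 to 176 bases before the start, and the promoters of Saa1 and Saa2 were identical at 95.6% of 249 aligned bases. The promoters of Saa1 and Saa3 were identical at 53.4% of 208 aligned bases. No letters of the STAT motif or of the NF-κB consensus were found in these 4 windows, which says only that those exact letters are not in them.

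The 4 serpins lie on the plus strand of chromosome 12 in a cluster of 13 named genes, 11 of them Serpina3 genes, that spans 301.6 kb in GRCm39. Serpina3f is at 104180803 to 104187388, Serpina3g at 104202406 to 104208198, Serpina3m at 104353416 to 104360518 and Serpina3n at 104372887 to 104380593. The irradiated mean reached 1 FPKM in 6 of the 13 genes. It was above the control mean in 12, but several of these, Serpina3j and Gm40561 among them, lay near 0 in every library. The count is therefore not read as a rise of the whole cluster. Over all genes tested, 6147 had a positive and 7761 a negative log2 difference. Serpina3c, upstream of Serpina3f and on the other strand, was at 2.93, 5.16 and 4.30 FPKM in control 1, 2 and 3 and at 5.66, 7.81 and 8.56 FPKM in irradiated 1, 2 and 3. Its groups did not overlap, but its order in the irradiated libraries was the reverse of that of Serpina3n. The log2 difference of Serpina3c was 0.71 ± 0.21 (limma, adjusted p = 0.168). Serpina3h, between Serpina3g and Serpina3m, was at 0.346, 0.591 and 0.344 FPKM in the controls and at 1.03, 0.595 and 1.51 FPKM in the irradiated libraries. Serpina3a, Serpina3b, Serpina3j and Serpina3k were at no more than 0.123 FPKM in any library.

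**Figure D3:**
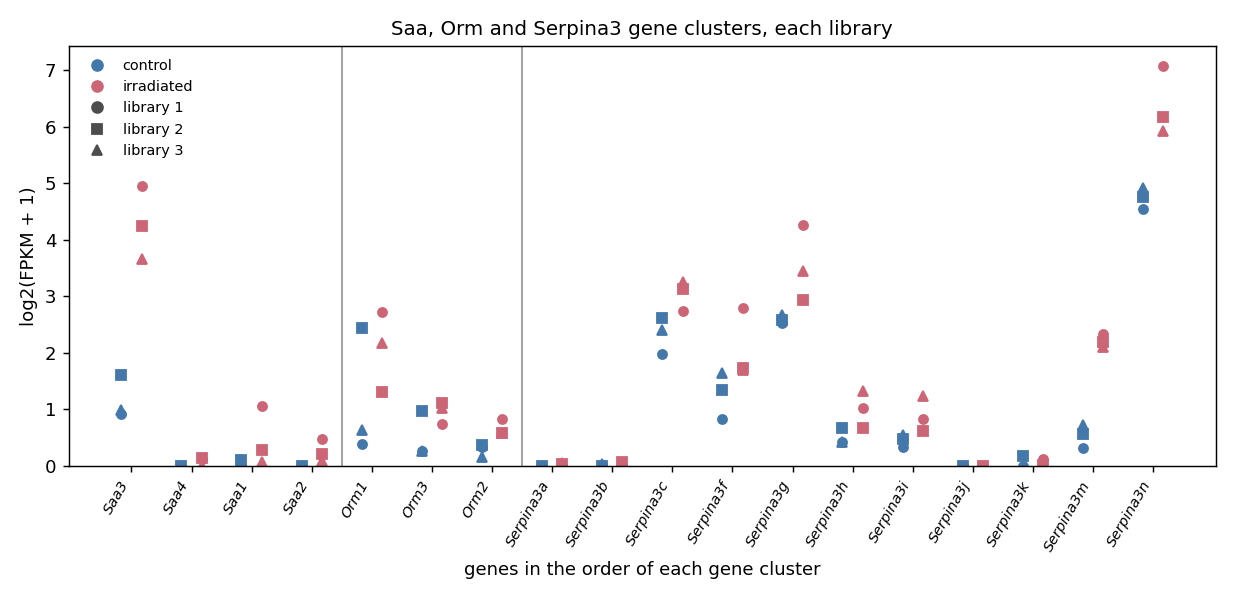
Level on the log2(FPKM + 1) scale (vertical axis) of the genes of the Saa, Orm and Serpina3 clusters in their order on the chromosome, with each control (blue) and irradiated (red) library as a point. Saa3 alone has group means above 1 FPKM in its cluster, and Serpina3n lies highest among the Serpina3 genes in both groups, with Serpina3a, Serpina3b, Serpina3j and Serpina3k near 0.

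Serpina3n held between 66.3% and 70.4% of the summed FPKM of the 11 Serpina3 genes in the controls, and 78.9%, 76.7% and 69.0% in irradiated 1, 2 and 3. That sum was 31.6, 39.3 and 42.6 FPKM in control lung, against 169.7, 92.4 and 86.9 FPKM in irradiated lung. Serpina3m held a small share that differed more: 0.762%, 1.22% and 1.52% in control lung, against 2.38%, 3.89% and 3.79% in irradiated lung. The ratio of Serpina3n to Serpina3m was accordingly lower in irradiated lung, at 33.1, 19.7 and 18.2 against 92.3, 54.6 and 45.4. Both the Serpina3m shares and this ratio rest on control levels of Serpina3m that are uncertain, as said above. The ratio of Serpina3n to Serpina3g was higher in each irradiated library, at 7.34, 10.7 and 6.06 against 4.62, 5.24 and 5.47.

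Serpins trap a protease through an exposed loop encoded near the 3′ end of the gene, and in the Serpina3 family that end of the coding sequence is the most divergent. The 4 genes were identical at between 81.9% and 87.0% of aligned coding bases in pairs. Pairs with Serpina3g rest on 651 or 747 aligned bases, because its gene model has only 747 coding bases. Stretches of 60 coding bases were compared only where none of the 4 genes had a gap. Coding bases that the Serpina3g model lacks were therefore left out. The most variable such stretch is shown, in which 30 positions differ in at least 1 gene against a median of 14 over 533 windows. It covers coding bases 1120 to 1179 of 1338 in Serpina3f, 541 to 600 of 747 in Serpina3g, and 1147 to 1206 of 1257 in Serpina3m and Serpina3n. Capitals mark the positions that differ.
Serpina3f: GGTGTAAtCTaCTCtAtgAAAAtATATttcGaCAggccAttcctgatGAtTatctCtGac
Serpina3g: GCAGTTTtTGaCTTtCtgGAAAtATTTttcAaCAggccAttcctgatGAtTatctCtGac
Serpina3m: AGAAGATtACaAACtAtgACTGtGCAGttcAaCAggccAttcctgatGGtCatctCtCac
Serpina3n: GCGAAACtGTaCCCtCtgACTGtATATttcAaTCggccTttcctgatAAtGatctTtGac

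Serpina3n shared 6.90% of its 50 base stretches with other genes, Serpina3f 10.7%, Serpina3g 16.0% and Serpina3m 19.1%, the last mostly with Serpina3k. At 100 bases these shares were 0.204%, 3.58%, 4.64% and 6.09%. The division of reads among Serpina3f, Serpina3g and Serpina3m is therefore less certain than the level of Serpina3n. Serpina3k, the gene that shares most with Serpina3m, was listed at no more than 0.123 FPKM in any library. Orm1 shared 20.4% of its 50 base stretches, all of them with Orm2, which lies in the same 21.3 kb cluster on chromosome 4. Orm2 was at 0.258, 0.286 and 0.115 FPKM in the controls and at 0.779, 0.504 and 0.503 FPKM in the irradiated libraries.

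The promoters of Serpina3g and Serpina3n are shown because their genes had different orders in the irradiated libraries. In GRCm38.p6 they are chr12:104235897-104236146 and chr12:104406458-104406707, both on the plus strand, and capitals mark the matches to the motifs named above.
Serpina3g: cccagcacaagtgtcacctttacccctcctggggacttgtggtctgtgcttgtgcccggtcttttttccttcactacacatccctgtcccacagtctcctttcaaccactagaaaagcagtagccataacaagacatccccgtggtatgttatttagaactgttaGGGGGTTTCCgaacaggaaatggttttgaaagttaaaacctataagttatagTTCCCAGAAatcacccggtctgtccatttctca
Serpina3n: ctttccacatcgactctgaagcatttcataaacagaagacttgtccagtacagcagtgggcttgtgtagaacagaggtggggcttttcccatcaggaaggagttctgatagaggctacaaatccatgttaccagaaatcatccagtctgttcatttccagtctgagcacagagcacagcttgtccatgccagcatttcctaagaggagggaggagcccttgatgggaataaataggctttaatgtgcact

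In Serpina3g a match to the STAT letters lay 33 to 25 bases before the start and a match to the NF-κB consensus lay 85 to 76 bases before it. The STAT letters are in 7.02% and the NF-κB consensus in 7.25% of promoter windows. The Serpina3n window held no match, which says nothing of the factors that act on it. The first of 2 annotated starts of Serpina3f had a STAT match at 121 to 113 bases and C/EBP matches at 150 to 143 and 22 to 15 bases before it.

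The list of other acute-phase genes and the lists below were written with earlier results of these data known. Their counts are therefore a description, and nothing is read from them. Of all 13908 genes tested 9 passed as higher (0.0647%), and among 35 other acute-phase genes 23 were tested and 1 passed, Steap4. This metal reductase of the plasma membrane rose from 3.67, 5.56 and 3.88 FPKM in control 1, 2 and 3 to 17.9, 23.3 and 22.0 FPKM in irradiated 1, 2 and 3 (log2 change 2.05 ± 0.16, limma adjusted p = 0.0298). All irradiated libraries were above all controls, but irradiated 1 was the lowest of them, unlike in Saa3 or Lcn2. The call was lost without control 1, control 3 or irradiated 2. Of the 23 genes 20 had a positive change and 3 a negative one, with a median of 0.43; over all genes tested 6147 were positive and 7761 negative, with a median of -0.03. An unadjusted p under 0.05 was found for 7 of the 23 and for 2466 of all 13908 genes tested, the background for such counts in the lists that follow. In 6 of the 23 all irradiated libraries were above all controls and in none below, where 9.91% and 14.6% of all genes did so. Irradiated 1 was the highest irradiated library for 15 of the 23 and control 2 the highest control for 20. Over all genes tested the shares were 36.1% for irradiated 1 and 42.7% for control 2.

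The metallothionein Mt2, which binds zinc and is induced with the acute phase, was at 7.32, 17.5 and 6.93 FPKM in the controls and at 100.3, 30.7 and 27.3 FPKM in the irradiated libraries, with irradiated 1 far above the rest (log2 difference 2.07 ± 0.58, limma adjusted p = 0.175). Lrg1, a leucine-rich glycoprotein of plasma, was at 25.0, 42.0 and 27.7 FPKM against 132, 96.9 and 70.8 FPKM. Its groups did not overlap and its order in the irradiated libraries was that of Serpina3n (1.62 ± 0.27, limma adjusted p = 0.0777). Mt1, another metallothionein, Cd14, the lipopolysaccharide coreceptor, and Fgg, a fibrinogen chain, had log2 differences of 1.06, 0.94 and 0.92, and limma called none of them. Complement C3 was at between 152.9 and 247 FPKM in the controls and between 123 and 245 FPKM in the irradiated libraries, and the groups overlapped. C-reactive protein, Crp, a liver acute-phase protein that is minor in mice, was at no more than 0.0577 FPKM in any library.

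**Figure D4:**
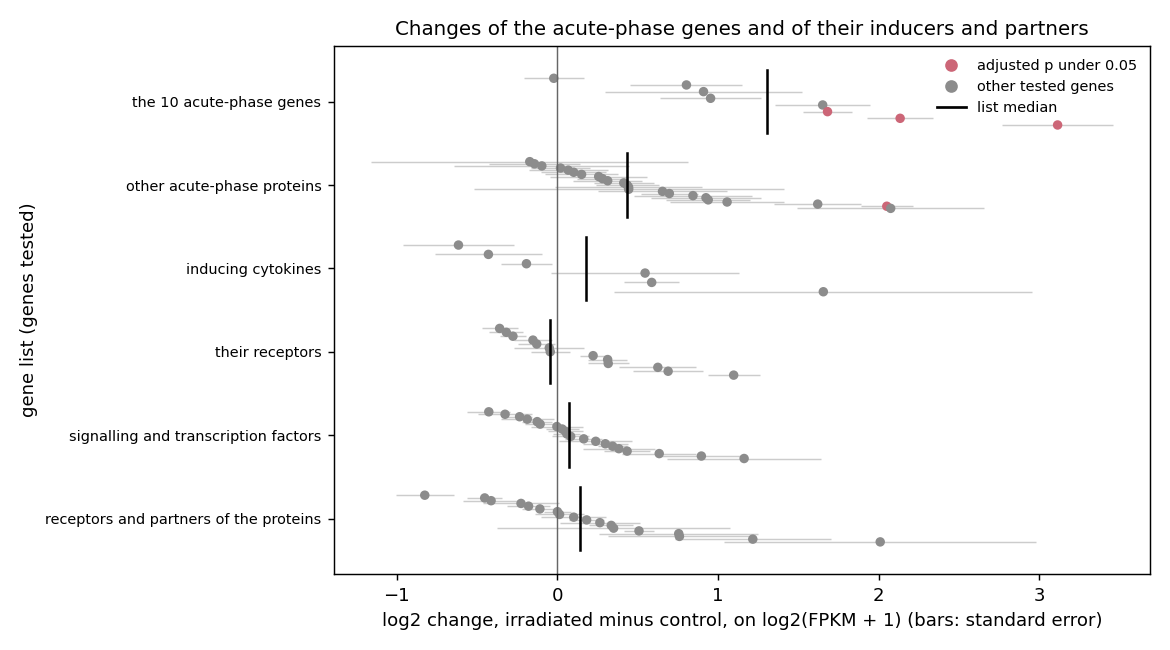
Log2 change of FPKM + 1 from control to irradiated lung (horizontal axis) of every tested gene (points, bars are SE) of the 10 acute-phase genes and of 5 further lists (rows), with black lines at the list medians. Red points, Saa3, Lcn2, Serpina3m and Steap4, passed an adjusted p under 0.05; the 10 genes were chosen on this contrast, which fixes their place, and the medians of the further lists run from -0.04 for the cytokine receptors to 0.43 for other acute-phase genes.

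Of 12 cytokines known to induce acute-phase genes, 6 were tested, 3 with a positive and 3 with a negative change, a median of 0.18, and limma called none, with 1 under an unadjusted p of 0.05. Il6, the chief inducer in liver, was at 0.302, 0.0692 and 0.997 FPKM in control 1, 2 and 3 and at 0.347, 0.161 and 0.434 FPKM in irradiated 1, 2 and 3. It was below the minimum for testing and its groups overlapped. Il1b was at 12.4, 5.33 and 72.5 FPKM in the controls and at 11.6, 135 and 112 FPKM in the irradiated libraries. It was lowest of all irradiated libraries in irradiated 1, where Saa3, Lcn2 and the serpins were highest (log2 difference 1.66 ± 1.30, limma adjusted p = 0.558). Lif, an IL-6 family cytokine, was at 0.650, 0.960 and 0.967 FPKM against 2.36, 1.55 and 1.51 FPKM, with no overlap and with irradiated 1 the highest (0.59 ± 0.17, limma adjusted p = 0.165). Il17a, the cytokine of γδ17 cells named in the title of the series, was listed at 0, 0 and 0.0800 FPKM in the controls and at 0.182, 0.1003 and 0.273 FPKM in the irradiated libraries. Tnf, Il33, Il1a and Osm had log2 differences of -0.62, -0.43, -0.19 and 0.55 and their groups overlapped except those of Tnf, whose irradiated libraries were all below the controls. Csf3 and Il22 were under 0.1 FPKM throughout, and Il17f was at no more than 0.444 FPKM and Il11, another IL-6 family cytokine, at no more than 0.746 FPKM.

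Of 14 receptors for these cytokines 13 were tested, and limma called none, with 9 under an unadjusted p of 0.05. Their changes were positive in 6 and negative in 7, with a median of -0.04. That median is smaller than the 0.111 by which rescaling FPKM to a common sum shifts all genes. Il6ra, the chain that binds IL-6, was at 9.70, 7.64 and 8.46 FPKM in control 1, 2 and 3 and at 15.8, 24.0 and 19.3 FPKM in irradiated 1, 2 and 3, with no overlap (log2 difference 1.10 ± 0.16, limma adjusted p = 0.0615). Without irradiated 1 it passed the threshold. Il1rap, the shared chain of IL-1 receptors, and Il17ra, the shared chain of IL-17 receptors, had differences of 0.69 and 0.62. Il17ra overlapped between groups, with irradiated 1 inside the range of the controls. Osmr, the oncostatin M receptor, was at between 11.7 and 12.9 FPKM in the controls and at 18.8, 14.3 and 13.9 FPKM in irradiated 1, 2 and 3 (0.32), and Lifr and Il11ra1, receptors of LIF and IL-11, differed by -0.32 and -0.36.

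Of 22 signalling and transcription factor genes 20 were tested, 13 with a positive and 7 with a negative change, a median of 0.07. Limma called none, with 7 under an unadjusted p of 0.05. Stat3, which carries the IL-6 signal to acute-phase promoters, was at 40.7, 38.7 and 37.1 FPKM in the controls and at 51.4, 52.0 and 45.4 FPKM in the irradiated libraries, with no overlap (log2 difference 0.34 ± 0.09, limma adjusted p = 0.144). Socs3, its feedback inhibitor and target, was at 13.0, 11.5 and 11.9 FPKM against 14.5, 32.1 and 27.4 FPKM. Irradiated 1 was only just above the controls in Socs3, the opposite of its place in Saa3, and without that library Socs3 passed the threshold (0.90 ± 0.27 with it, limma adjusted p = 0.182). Cebpd, a C/EBP factor of the acute phase, was at 16.2, 17.1 and 50.7 FPKM against 36.8, 71.9 and 64.3 FPKM and overlapped. Cebpa, a C/EBP factor of differentiated liver and lung epithelium, differed by -0.43 and Cebpb by 0.38. Nfkbiz and Myd88, of the NF-κB pathway, differed by 0.63 and 0.43 with no overlap.

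**Figure D5:**
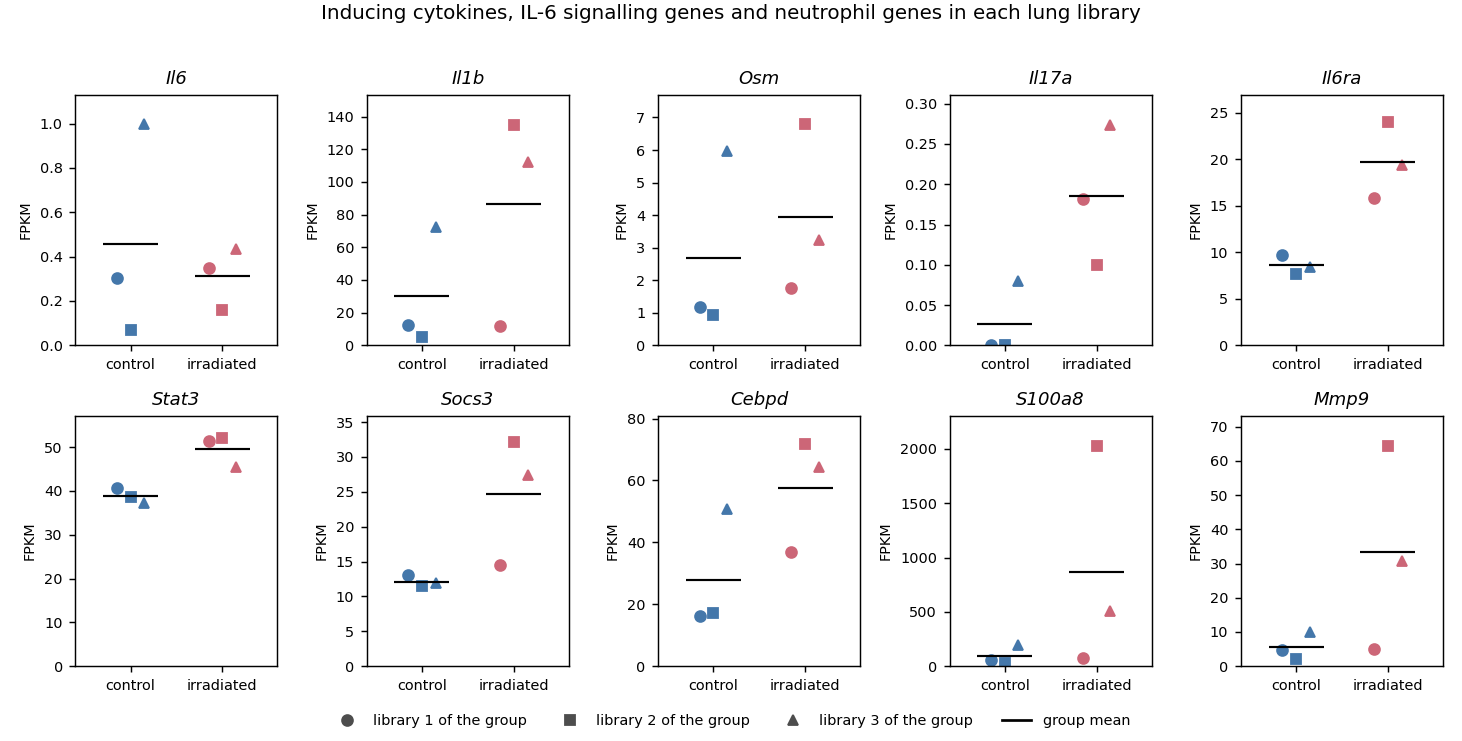
Level in FPKM (vertical axis, from 0, with a scale of its own for each gene) of inducing cytokines, IL-6 signalling genes and neutrophil genes in the 3 control and 3 irradiated libraries; marker shape gives the library number and the line is the group mean. Il1b, Socs3, Cebpd, S100a8 and Mmp9 are lowest among the irradiated libraries in irradiated 1, where the amyloid and serpin genes are highest, and Il6ra and Stat3 do not overlap between groups. Of the 6 inducing cytokines tested, irradiated 1 was the lowest irradiated library for 3 and the highest for 3, among the latter Lif, which is not shown.

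Of 23 receptors, ligands and protease targets of the encoded proteins 18 were tested, 12 with a positive and 6 with a negative change, a median of 0.14. Limma called none, with 5 under an unadjusted p of 0.05. Mmp9, a protease reported as a partner of human LCN2, was at 4.76, 2.14 and 9.91 FPKM in the controls and at 5.17, 64.5 and 30.8 FPKM in the irradiated libraries. Its order there was that of the summed neutrophil markers and not of Lcn2. Fpr2, a receptor of serum amyloid A, was at 4.34, 5.59 and 6.10 FPKM against 6.46, 29.8 and 12.6 FPKM, with irradiated 2 the highest. Gzmb, granzyme B, a protease that mouse Serpina3n can inhibit, was at 3.80, 3.25 and 4.36 FPKM against 1.90, 2.15 and 1.15 FPKM, with all irradiated libraries below all controls (log2 difference -0.83 ± 0.18, limma adjusted p = 0.102). Slc22a17, a receptor of Lcn2, was at between 5.72 and 8.33 FPKM against between 4.26 and 6.43 FPKM and overlapped. Cd163, the macrophage receptor for haptoglobin bound to haemoglobin, was at between 1.05 and 1.19 FPKM against between 0.691 and 1.65 FPKM. Lrp1, an endocytic receptor that clears complexes of serpins and proteases, was at between 23.8 and 26.5 FPKM against between 33.3 and 38.9 FPKM, with no overlap (0.51 ± 0.09, limma adjusted p = 0.0794). Elane and Ctsg, neutrophil proteases, were at no more than 0.608 FPKM in any library.

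Profiles most like those of Saa3, Lcn2 and Serpina3n were looked up among the genes tested, with predicted, clone-based and microRNA names left out. Likeness was the root mean square difference over the 6 libraries of log2(FPKM + 1) relative to the control mean. For Lcn2 the nearest were Steap4, the mitochondrial kinase Pdk4, the spindle protein Psrc1 and Serpina3m, at 0.283, 0.343, 0.357 and 0.393. For Serpina3n they were Eda2r, Lrg1, Serpina3m and the stress cytokine Gdf15, at 0.104, 0.259, 0.286 and 0.337. Eda2r, a receptor of the TNF receptor family, followed Serpina3n closely on this scale, but at a far lower level. It was at 0.596, 0.687 and 1.28 FPKM in control lung, against 7.29, 3.74 and 3.16 FPKM in irradiated lung. Adding 1 shrinks the differences of genes this low, so such likeness depends on that constant. Serpina3m is a like case, with a ratio of group means of 8.01, against 4.41 for Lcn2 and 3.41 for Serpina3n. Among the genes searched Saa3 had none as near: Cd177, the cell cycle inhibitor Cdkn1a, the chaperone Fkbp5 and Lcn2 were at 0.585, 0.622, 0.715 and 0.760. Cd177, a surface protein of neutrophils, was at 1.76, 4.19 and 1.68 FPKM in the controls and at 33.8, 16.2 and 40.9 FPKM in the irradiated libraries, highest in irradiated 3 where Saa3 was lowest. All of these profiles come from the same 6 libraries, and likeness of profile over 6 libraries was not tested.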

How the data were processed

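Whole lung polyA RNA of 3 control and 3 irradiated libraries was analysed. Per the labels' protocols, TRIzol RNA went into an mRNA library kit and onto a DNBSEQ-T7 sequencer. Tools named in the submitters' processing notes are fastp, STAR 2.7.6a and DESeq2, and the build is GRCm39, but what each was used for is not stated. How the tables were made, strand setting and read length are likewise not given. Per the file headers, the deposited tables hold FPKM and coverage for each gene, and FPKM is the authors' own scaling for transcript length and library depth. The deposited coverage, a signal per base, served to estimate aligned sequence per library and to show how thin Saa1 and Saa2 were. With no read numbers per gene, counting error is unknown and no intervals are given.

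Rows with a gene name were used and FPKM was summed per gene. Each table also lists unnamed assembled loci that repeat the named genes. Of the 56 values above 0 of the 10 genes, 55 had such a locus on the same strand, 47 within 5% of the named value. The 1 gap beyond 5% at 1 FPKM or more was Lcn2 in control 2 (107 against 88.4 FPKM). Below 1 FPKM, gaps beyond 5% were found in Saa1, Saa2, Orm1 and Serpina3m. For Serpina3m the loci summed to 0.512 against 0.241 FPKM in control 1 and to 1.67 against 0.646 FPKM in control 3. Its irradiated values agreed within 5%.

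The members and gene lists were chosen with earlier results of these data known. The 13908 genes averaging 1 FPKM or more were tested with limma 3.58.1 in R 4.3.3 on log2(FPKM + 1), with a mean-variance trend, robust variance estimates and group as the only term, with Benjamini-Hochberg adjustment over all genes tested. Log2 differences are irradiated minus control, with SE, and understate the change of genes near or below 1 FPKM. The fit was tested on simulated data. Named genes are the 10 members, any listed gene that passed, up to 6 further tested genes per list with the largest change, listed genes below the minimum, cluster neighbours, and the 4 most alike profiles of Saa3, Lcn2 and Serpina3n. A gene that this rule takes is not reported here. Stat3, C3, Slc22a17, Cd163, Elane, Ctsg, Crp and the marker genes named singly were added after their values were seen. Coordinates of genes are those of the files (GRCm39). Chromosome numbers were assigned by gene symbol. RefSeq promoters and GENCODE M21 transcripts are of GRCm38, and sequences were aligned with MAFFT 7.526. Other steps used pandas 2.3.3 and numpy 2.4.6 in Python 3.11.15.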

Additional observations from a re-analysis of the deposited data

How the results depend on the processing

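Of the 8 tested acute-phase genes, 7 kept the sign of their log2 difference in the 15 or 16 alternatives run, and Hp kept it in 12 of 16. Saa1 and Saa2 entered only the fit without a filter. Counts of calls depended on the settings. Among all genes tested, 25 passed, against 0 with no filter on low values (3531 at an unadjusted p under 0.05), 38 with a minimum of 5 FPKM, 13 with FPKM rescaled to a common sum, 11 with median-ratio scaling and 9 without control 2 and irradiated 2. Leaving out 1 library gave 0 to 116. Of the 8 tested acute-phase genes 3 passed, against 0 with no filter, 2 with a minimum of 5 FPKM, which leaves out Serpina3m, 2 without Saa3 under either of those scalings, and 1 (Lcn2) without control 2 and irradiated 2, and 0 to 4 with 1 library left out. Of the other acute-phase genes 1 passed, against 0 with no filter and 0 to 1 with 1 library left out. For cytokines, receptors and signalling genes the count was 0, and 0 to 2 with 1 library left out. The causes were not tested. Partners of the proteins had 0 calls in every alternative run. Deviations from the group means had correlations of -0.17, -0.54 and -0.28 between libraries with the same replicate number. Other pairs ran from -0.28 to 0.52. Deviations within a group of 3 sum to 0, so these values cannot show whether the numbers mark a pairing, and the labels name none. With the replicate block limma called 0 genes of the whole table, 0 of the 10 and 0 of the other acute-phase genes, and 1623 genes had an unadjusted p under 0.05. With 3 libraries per group and no counts, the differences of Saa1 and Saa2, at levels near or below 1 FPKM, are uncertain. How far depth limits them was not tested.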
